A study of Rattus norvegicus with 74 samples.

Results

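Insulin signalling and glucose uptake were followed through 9 genes, found by symbol in each of the 3 deposited tables of counts per gene: Slc2a4, Slc2a1, Hk2, Insr, Irs1, Akt2, Tbc1d1, Tbc1d4 and Pik3r1. They are 9 of the 30560 genes in the tables, and all 9 had counts in every library and entered every test. RNA came from male wild-type Wistar Kyoto rats, 9 weeks old, all of which drank water containing deuterium oxide. From 5 weeks of age the trained rats (ExT) ran on a treadmill for 4 weeks, 5 days a week, up to 60 min a day at 20 m/min, while the sedentary rats (Sed) spent that time on a stopped belt. Tissue was taken 24 h after training ended. Whole red gastrocnemius, a hindlimb muscle (SM), and mitochondria that an antibody pulled from the same muscle, cleaned with RNase-A and proteinase-K (MT), each gave 15 Sed and 15 ExT libraries, 1 of each kind per rat. The left ventricle (LV) gave 7 Sed and 7 ExT libraries from 14 of the same 30 rats, which leaves 74 libraries in all.

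Insulin binds its receptor on the muscle fibre, and the receptor phosphorylates adaptor proteins that recruit phosphoinositide 3-kinase. The lipid made by that kinase activates Akt, which phosphorylates the Rab-GTPase-activating proteins Tbc1d4 and Tbc1d1 and so lets vesicles carrying the glucose transporter GLUT4 reach the cell surface. Contraction reaches the same vesicles through AMP-activated kinase, glucose that has entered is trapped by hexokinase, and endurance training is known for raising GLUT4 and hexokinase II in muscle.

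SM libraries held 19477976 to 39401323 counts, MT libraries 530397 to 9988027 and LV libraries 54645657 to 75758777. Each member therefore rested on very different numbers of reads: 13 to 119 counts per MT library, against 40 to 186 counts for Slc2a1 in SM and 4874 to 13820 for Slc2a4. The tissue labels were checked against markers. The summed level of 8 cardiomyocyte markers was 22107 to 31456 CPM (read counts relative to library size, with TMM scaling) in LV and 7.89 to 32.8 CPM in SM, where Nppb was at 0 in every ExT library. The summed level of 6 fast-fibre markers was 46224 to 106841 CPM in SM and 1.31 to 3.34 CPM in LV. Libraries of rats numbered 2 to 16 (14 rats) and 17 to 32 (16 rats) stood apart, with both arms in each range: with the arm in the fit, edgeR called 1762 of 13570 genes (13%) between the ranges in SM and 322 of 19281 (1.67%) in MT. Of the 9 members, 1 was called between the ranges, Pik3r1 in SM, with a log2 level 0.24 higher in rats 17 to 32. Levels are in TMM-scaled CPM throughout and are not compared between genes, since transcript length was not used here.

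In whole muscle, the mean level of both glucose transporters and of hexokinase II was higher in trained rats, but none of the 9 members passed the test over all genes. Slc2a1 differed by 1.42-fold, Hk2 by 1.16-fold and Slc2a4 by 1.15-fold. The quasi-likelihood test of edgeR, with Benjamini-Hochberg adjustment, called 28 of 13570 genes (0.206%, threshold 0.05), and 0 of 9 members. At an unadjusted p under 0.05 there were 1860 genes and 3 members, and DESeq2 called 131 genes and 1 member, Slc2a1. The members' median log2 difference was 0.12, beside -0.01 over all genes tested, and 7 of 9 were positive.

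Slc2a4 encodes GLUT4, the transporter that insulin and contraction move to the fibre surface. Its SM level ran from 219.8 to 371 CPM with a median of 312 in Sed (mean 302 ± 47.0, SD, n = 15). In ExT it ran from 284 to 415 CPM with a median of 346 (mean 347 ± 35.3, SD, n = 15). The arms overlapped, with 13 of 15 trained rats above the Sed median and 4 of 15 sedentary rats below every trained one. The log2 difference was 0.20 (SE 0.0705, 95% interval 0.06 to 0.34, edgeR adjusted p = 0.209).

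Slc2a1 encodes GLUT1, a transporter that stays largely at the cell surface and is found in many cell types, perineurial and endothelial cells among them. The SM level ran from 1.75 to 4.86 CPM with a median of 2.60 in Sed (mean 2.75 ± 0.919, SD, n = 15). In ExT the range was 2.69 to 5.84 CPM with a median of 3.78 (mean 3.91 ± 0.996, SD, n = 15). All 15 trained rats lay above the Sed median and 9 of 15 sedentary rats lay below every trained one, while the highest Sed library, that of rat 29, lay among the trained rats. The log2 difference was 0.51 (SE 0.142, 95% interval 0.23 to 0.78, edgeR adjusted p = 0.119), higher than that of 99.2% of the genes tested. Among the members only the Slc2a1 call changed with the processing in this comparison. It passed with DESeq2 (log2 difference 0.51, adjusted p = 0.0476), in rats 2 to 16 alone (0.73, edgeR adjusted p = 0.0465) and without the library of sedentary rat 29 (0.58, edgeR adjusted p = 0.0350). Over the 38 alternatives tried its adjusted p ran from 0.0350 to 0.842.

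Hk2 encodes hexokinase II, which phosphorylates glucose in muscle fibres and binds the outer face of mitochondria. The SM level spanned 83.3 to 163 CPM with a median of 126 in Sed (mean 124 ± 22.2, SD, n = 15). In ExT the span was 115 to 172 CPM with a median of 145 (mean 144 ± 12.4, SD, n = 15). Of 15 trained rats 14 lay above the Sed median, and 6 of 15 sedentary rats lay below every trained one. The log2 difference was 0.21 (SE 0.0723, 95% interval 0.07 to 0.35, edgeR adjusted p = 0.188). Hk2 spread less among trained than among sedentary rats, with a coefficient of variation of 8.60% against 17.8%; the difference in spread was not tested.

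**Figure D1:**
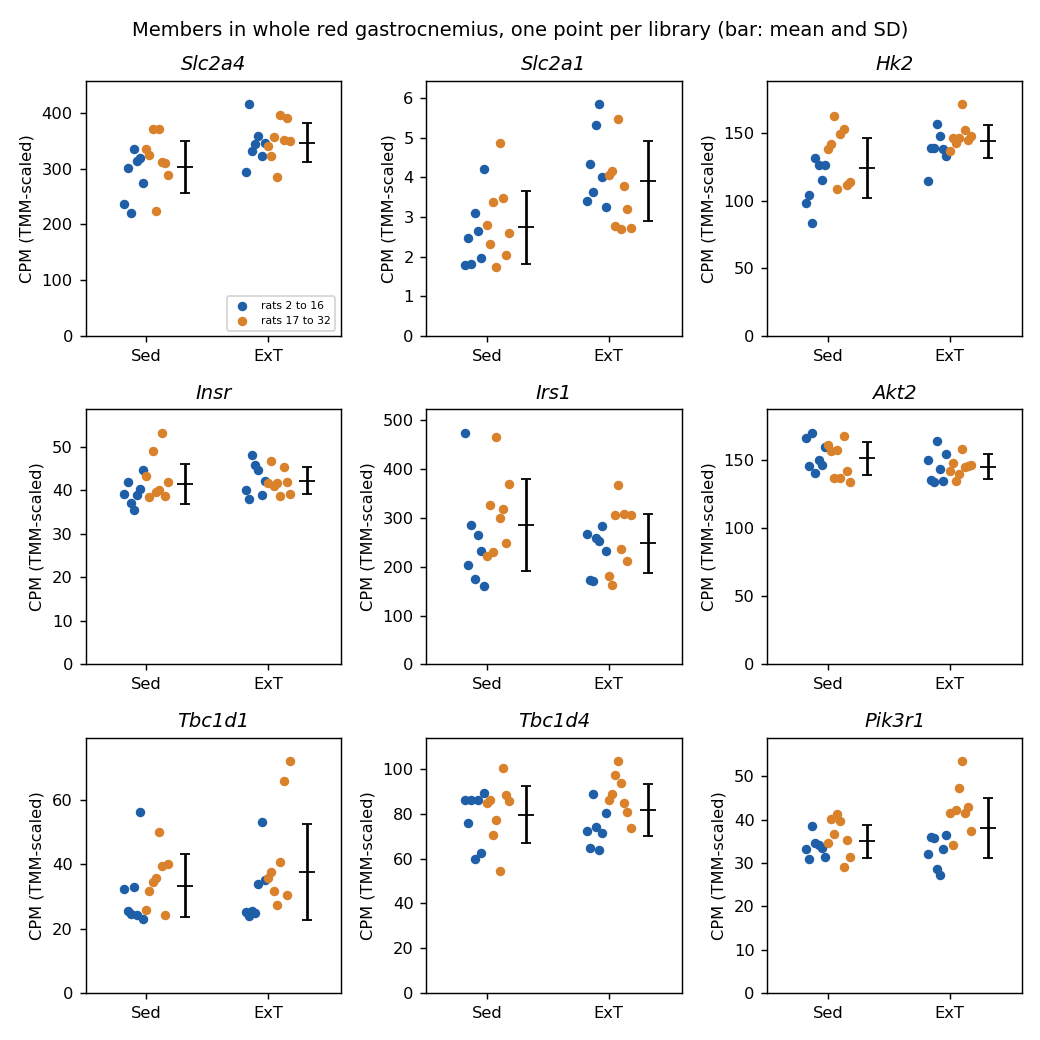
Levels of the 9 members in whole red gastrocnemius (SM), in TMM-scaled CPM on axes that start at 0, with 1 point per library, coloured by rat number, and the mean and SD of each arm (n = 15). The arms overlap for all 9 genes; the clearest shifts are those of Slc2a1, where 15 of 15 ExT libraries lie above the Sed median, and Hk2, where 14 of 15 do.

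The receptor and its adaptors showed no called difference. Insr, the insulin receptor, was at 41.4 ± 4.63 CPM in Sed (35.5 to 53.2, median 40.1) and 42.2 ± 3.17 CPM in ExT (37.9 to 48.2, median 41.5; SD, n = 15 each). Its log2 difference of 0.03 had a 95% interval of -0.07 to 0.13. Irs1, the main docking protein of the receptor in muscle, was at 285 ± 94.0 CPM in Sed (161 to 474, median 264) and 247 ± 60.1 CPM in ExT (163 to 366, median 252; SD, n = 15 each). Irs1 libraries of either arm differed from each other by more than the arms did. The Irs1 log2 difference was -0.20 (SE 0.145, edgeR adjusted p = 0.555), with 6 of 15 trained rats above the Sed median.

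Downstream, Pik3r1 encodes the regulatory subunit p85 of phosphoinositide 3-kinase, which ties the kinase to the adaptors. It was at 35.0 ± 3.70 CPM in Sed (29.1 to 41.4, median 34.5) and 38.0 ± 6.99 CPM in ExT (27.3 to 53.5, median 36.5; SD, n = 15 each). The overall log2 difference was 0.12 (SE 0.0745, edgeR adjusted p = 0.476), and 6 of 15 trained rats lay above every sedentary one. Akt2, the Akt kinase most tied to insulin-stimulated glucose uptake, was at 151 ± 12.0 CPM in Sed (133 to 169.7, median 149.8) and 145 ± 9.00 CPM in ExT (134 to 164, median 144; SD, n = 15 each). The groups overlapped almost throughout, and the Akt2 log2 difference was -0.06 (95% interval -0.15 to 0.02).

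Tbc1d1 and Tbc1d4 encode the Rab-GTPase-activating proteins that hold GLUT4 vesicles back until they are phosphorylated. Tbc1d4 was at 79.7 ± 12.7 CPM in Sed (54.6 to 101, median 86.0) and 81.7 ± 11.7 CPM in ExT (63.9 to 104, median 80.9; SD, n = 15 each), a log2 difference of 0.04 (95% interval -0.12 to 0.19). Tbc1d1 was at 33.4 ± 9.90 CPM in Sed (22.9 to 56.3, median 32.3) and 37.5 ± 14.9 CPM in ExT (24.1 to 72.1, median 33.9; SD, n = 15 each). Tbc1d1 had the widest relative spread of the members in trained muscle, a coefficient of variation of 39.6%, and 2 of 15 trained rats lay above every sedentary one. Its log2 difference of 0.17 (SE 0.167, edgeR adjusted p = 0.684) was close to the size of its error.

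The training differences in SM were also taken within each range of rat numbers. For rats 2 to 16 the log2 difference was 0.73 for Slc2a1, 0.31 for Hk2 (edgeR adjusted p = 0.0707) and 0.28 for Slc2a4 (adjusted p = 0.109). For rats 17 to 32 the same genes gave 0.31 (edgeR adjusted p = 0.842), 0.14 (adjusted p = 0.842) and 0.14 (adjusted p = 0.869). Pik3r1 went the other way, with -0.03 in the first range and 0.24 (SE 0.0877, edgeR adjusted p = 0.739) in the second. Tested directly, in a fit added after the data had been seen, the change of the training difference between ranges was called for 0 of 13570 genes by edgeR. Among the members Pik3r1 came nearest (0.28, SE 0.119, unadjusted p = 0.0239, edgeR adjusted p = 0.304), and for Slc2a1 it was -0.41 (SE 0.284, edgeR adjusted p = 0.547).

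Over all rats, edgeR called no member for training outside whole muscle either. In MT, edgeR called 0 of 19281 genes (0%) and 0 of 9 members; 912 genes and 0 members had an unadjusted p under 0.05, and DESeq2 called 0. Slc2a4 was at 18.8 ± 4.64 CPM in MT_Sed (13.01 to 28.1, median 17.3) and 19.5 ± 4.98 CPM in MT_ExT (12.2 to 31.1, median 17.9; SD, n = 15 each). Hk2 was at 37.2 ± 5.44 CPM in MT_Sed (28.4 to 47.2, median 37.6) and 36.1 ± 5.99 CPM in MT_ExT (26.3 to 45.9, median 35.7; SD, n = 15 each). The arms overlapped for both, with log2 differences of 0.05 (95% interval -0.19 to 0.29) for Slc2a4 and -0.03 (-0.20 to 0.14) for Hk2. Akt2 had the lowest unadjusted p of the members in MT (log2 difference -0.19, SE 0.101, unadjusted p = 0.0583, edgeR adjusted p = 0.9997), at 28.6 ± 5.40 CPM in Sed and 25.03 ± 4.80 CPM in ExT (SD, n = 15 each).

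In LV, edgeR called 0 of 14488 genes (0%) and 0 of 9 members; 855 genes and 0 members had an unadjusted p under 0.05, and DESeq2 called 1 gene, not a member. Slc2a4 ran from 254 to 335 CPM with a median of 282 in LV_Sed (mean 284 ± 29.3, SD, n = 7) and from 269 to 353 CPM with a median of 319 in LV_ExT (mean 312 ± 30.1, SD, n = 7). Hk2 ran from 34.8 to 52.2 CPM with a median of 44.7 in LV_Sed (mean 42.9 ± 6.15, SD, n = 7) and from 38.2 to 61.2 CPM with a median of 46.8 in LV_ExT (mean 49.0 ± 8.33, SD, n = 7). Trained rats lay above the Sed median in 6 of 7 cases for Slc2a4 and 4 of 7 for Hk2. The log2 differences were 0.14 for Slc2a4 (95% interval -0.002 to 0.28, edgeR adjusted p = 0.804) and 0.19 for Hk2 (-0.03 to 0.41, adjusted p = 0.817). Slc2a1 differed by 0.09 on the log2 scale (SE 0.0925, edgeR adjusted p = 0.894), at 8.89 ± 1.06 CPM in Sed and 9.46 ± 1.35 CPM in ExT (SD, n = 7 each).

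**Figure D2:**
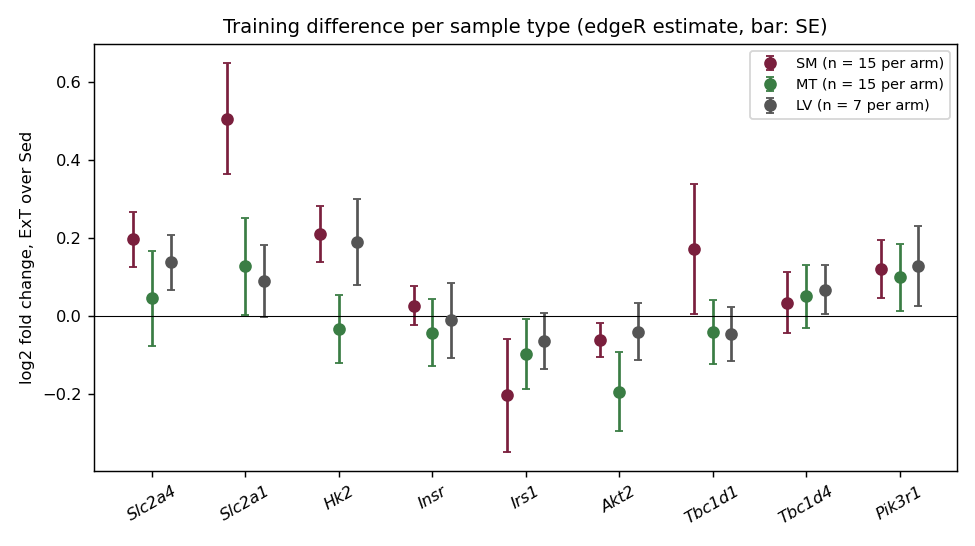
Log2 fold change of ExT over Sed for each member (edgeR estimate, bar: SE) in whole muscle (SM), isolated mitochondria (MT) and left ventricle (LV). None of the 27 values passes at an adjusted p under 0.05. Slc2a1 in SM, at 0.51, stands highest, and in SM and LV Slc2a4 and Hk2 lie between 0.14 and 0.21. SM and MT values come from 30 rats and LV values from 14 of them. Within those 14 rats the LV minus SM training difference for Slc2a1 was -0.002.

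Whether the training difference varied between the sample types was tested with an interaction term. For MT against SM, edgeR called 5 of 27684 genes (0.0181%) and 0 of 9 members, and 3 genes with the rat as a replicate block. At an unadjusted p under 0.05 there were 2354 of the 27684 genes and 2 members, Slc2a1 and Hk2, and DESeq2 called 32 genes and 0 members. The training difference was lower in MT by -0.41 for Slc2a1 (SE 0.194, unadjusted p = 0.0375, edgeR adjusted p = 0.561) and by -0.27 for Hk2 (SE 0.116, unadjusted p = 0.0207, adjusted p = 0.5005). For LV against SM in the 14 shared rats, edgeR called 0 of 15049 genes (0%) and 0 members; 687 genes and 0 members had an unadjusted p under 0.05, and DESeq2 called 1 gene, not a member. The interval of that difference was -0.24 to 0.19 for Slc2a4 and -0.22 to 0.33 for Hk2, and both intervals hold 0 as well as a difference as large as that in SM.

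Wider lists of the same pathway gave 0 called genes in all 3 training comparisons and both interaction tests by edgeR. In SM these were 17 genes of receptors and adaptors (10 positive, median log2 difference 0.02), 25 of the PI3K-Akt branch (15 positive, 0.00), 28 of GLUT4 traffic (12 positive, -0.02) and 9 glucose transporters (5 positive, 0.07). Genes of glucose phosphorylation and glycogen numbered 21 in the test (10 positive, -0.03), and AMP-activated kinase with regulators of Slc2a4 and Hk2 gave 21 (8 positive, -0.03), beside -0.01 over all genes. In rats 2 to 16 alone, where edgeR called 396 genes in all, it called 1 of the PI3K-Akt branch, 1 transporter and 2 each of the GLUT4 traffic, glycogen and AMP-activated kinase lists. With DESeq2, 1 transporter and 1 gene of the glycogen list were among the 131 genes called. In LV, 21 of 23 genes of glucose phosphorylation and glycogen were positive, with a median of 0.08 beside 0.00 over all genes tested, though none was called.

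Marker levels of other cell types are given here beside the training comparison in SM. None of the 6 Schwann-cell and nerve-sheath markers was called by edgeR, but 6 of 6 were positive with a median log2 difference of 0.57 (smallest adjusted p = 0.301). Their summed level was 23.3 to 164 CPM in Sed (median 51.4) and 44.7 to 201 CPM in ExT (median 109.8), and none was at 0 in an arm. Slow-fibre markers were positive in 6 of 6 (median 0.34; summed 4275 to 23890 CPM in Sed and 4468 to 25872 CPM in ExT), fast-fibre markers in 1 of 6 (median -0.28; 49299.9 to 106841 CPM and 46224 to 79701 CPM) and endothelial markers in 7 of 7 (median 0.20; 319 to 631 CPM and 429 to 630.2 CPM). No marker of these 3 lists was called by edgeR or at 0 in an arm. Macrophage and leukocyte markers were positive in 0 of 6 (median -0.35; 34.6 to 122 CPM in Sed and 31.1 to 61.8 CPM in ExT), fibroblast markers in 0 of 5 (median -0.16; 1758 to 8096 CPM and 1822 to 4251 CPM) and adipocyte markers in 1 of 3 tested (median -0.56, smallest edgeR adjusted p = 0.108; 19.1 to 65.5 CPM and 24.3 to 42.1 CPM for all 7). Cardiomyocyte markers were positive in 4 of 4 tested (median 0.31; 7.89 to 24.8 CPM and 9.59 to 32.8 CPM for the whole list, Nppb at 0 in ExT), red-cell markers in 3 of 3 (median 0.29; 28.4 to 96.9 CPM and 29.8 to 137 CPM, Hbb-bs at 0) and satellite-cell markers in 3 of 3 (median 0.05; 16.3 to 23.9 CPM and 15.6 to 26.99 CPM). None of these was called by edgeR either. In these bulk samples fewer cells of a type and less RNA per cell cannot be told apart, and the part of these markers in the members' differences was not tested.

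Across the 30 SM libraries, the level of each member was compared with the mean log2(CPM + 0.5) of 10 marker lists, 90 relations in all, a comparison added after the data had been seen. At a Benjamini-Hochberg adjusted permutation p (q) under 0.05 there were 24 relations, 12 positive and 12 negative. The closest was that of Slc2a1 with the nerve-sheath list: Pearson r = 0.844 (permutation p = 1e-05, the smallest 100000 permutations can give, q = 0.0009) and Spearman rho = 0.840 (p = 1e-05, q = 0.0009). Without the 2 libraries farthest from the median r was 0.833, and it was 0.860 in rats 2 to 16 and 0.829 in rats 17 to 32. After removal of each arm's mean within each range it was 0.816, so the relation held inside the arms as well as across them. Slc2a1 and the nerve-sheath list moved together from rat to rat, sedentary rat 29 with its high Slc2a1 included. The relation was shared: Hk2 (r = 0.628, q = 0.0045), Slc2a4 (r = 0.496, q = 0.0273) and Insr (r = 0.463, q = 0.0417) also passed with this list. By rho, Slc2a4 and Insr did not pass (q = 0.0851 for each). Slc2a1 passed with the cardiomyocyte (r = 0.615, q = 0.00504) and slow-fibre (r = 0.517, q = 0.0228) lists too.

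The Slc2a4 level went with that of the slow-fibre markers, though not with these alone. Slc2a4 also passed with the cardiomyocyte (r = 0.555, q = 0.0128), endothelial (r = 0.551, q = 0.0135), macrophage and leukocyte (r = -0.476, q = 0.0417) and fibroblast (r = -0.461, q = 0.0417) lists. By rho, the endothelial list passed (q = 0.0335) and the cardiomyocyte, leukocyte and fibroblast lists did not. With the slow-fibre list r was 0.679 (permutation p = 5e-05, q = 0.0018) and rho 0.538 (p = 0.00275, q = 0.0247), with 0.514 left without the 2 farthest libraries, 0.750 in rats 2 to 16 and 0.651 in rats 17 to 32. With the fast-fibre list r was -0.565 (permutation p = 0.0012, q = 0.0108) and rho -0.547 (p = 0.00238, q = 0.0238), -0.438 without the 2 farthest, -0.762 in the first range and -0.313 in the second. Irs1 was lower where the slow-fibre markers were higher, with r = -0.601 (permutation p = 0.00051, q = 0.00765) and rho = -0.546 (p = 0.00237, q = 0.0238). For Irs1, r was -0.543 without the 2 farthest, -0.520 in rats 2 to 16 and -0.709 in rats 17 to 32. Irs1 also passed with the cardiomyocyte list (r = -0.578, q = 0.0091), though not by rho (q = 0.0851). Set directly against each other, Slc2a4 and Irs1 did not pass (r = -0.480, permutation p = 0.00681, q = 0.0613, and rho = -0.321, q = 0.264). Akt2 was lower where endothelial markers were higher (r = -0.690, permutation p = 6e-05, q = 0.0018; rho = -0.696, p = 4e-05, q = 0.0018; -0.672 without the 2 farthest, -0.826 and -0.566 in the 2 ranges). Akt2 also passed with the fast-fibre (r = 0.513, q = 0.0228) and red-cell (r = -0.454, q = 0.0474) lists. By rho, the fast-fibre list passed (q = 0.0229) and the red-cell list did not (q = 0.0851). All these values share library and depth, and the lists were measured in the same libraries as the members.

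Among the 36 pairs of members, 2 were related at q under 0.05. Slc2a4 and Hk2 had r = 0.795 (permutation p = 1e-05, q = 0.00036) and rho = 0.725 (p = 2e-05, q = 0.00072), with 0.707 left without the 2 farthest libraries, 0.845 in rats 2 to 16 and 0.742 in rats 17 to 32. Slc2a1 and Hk2 had r = 0.652 (permutation p = 7e-05, q = 0.00126) and rho = 0.592 (p = 0.00081, q = 0.0146), with 0.630 left, 0.866 and 0.549. Rats with more GLUT4 mRNA had more hexokinase II mRNA in both ranges, and with each arm's mean in each range removed r was 0.719. The other 34 pairs did not pass, the transporters with each other among them (Slc2a4 and Slc2a1, r = 0.497, permutation p = 0.00491, q = 0.0589).

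**Figure D3:**
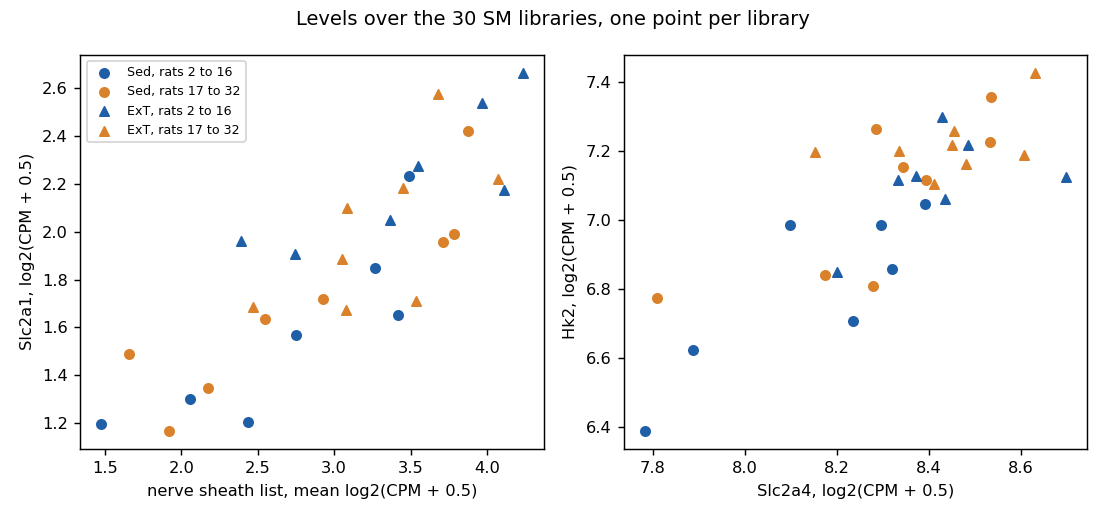
Levels over the 30 SM libraries, 1 point per library, as log2(CPM + 0.5), with shape for arm and colour for rat number. Left, Slc2a1 against the mean of the nerve-sheath list (r = 0.844); right, Hk2 against Slc2a4 (r = 0.795). Points rise from left to right in each panel, and the arms overlap, but the low end is Sed. Below every ExT library lie 9 of 15 Sed libraries for Slc2a1, 6 of 15 for Hk2 and 4 of 15 for Slc2a4.

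The genes whose SM level was most like that of Slc2a4, over 30 libraries and 8557 genes with each arm's mean in each range removed, were Mtfp1 (r = 0.865), Coq8a (0.853), Dhrs11 (0.853), Slc16a1 (0.850) and Atp5f1b (0.849). Mtfp1 encodes a mitochondrial fission protein, Coq8a a protein of coenzyme Q synthesis, Slc16a1 the lactate transporter MCT1 and Atp5f1b a subunit of ATP synthase. For Hk2 they were Gys1 (r = 0.832), Ogdh (0.782), Got2 (0.782), Alas1 (0.765) and Anxa11 (0.748). Gys1 is muscle glycogen synthase, Ogdh and Got2 are mitochondrial enzymes of the citric acid cycle and the malate-aspartate shuttle, and Alas1 starts haem synthesis.

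Because Slc2a1 and Hk2 moved together, the 250 bases before the RefSeq transcription start of each are printed 5′ to 3′ on the gene's strand, from the GRCr8 build, which is not the mRatBN7.2 build of the counts. The RefSeq promoter table holds 8 of the 9 members. Slc2a4, the member that moved most closely with Hk2 (r = 0.795), is the one without an entry. Capitals mark the GC box GGGCGG, the ACGTG core of hypoxia response elements and the TGACG core of the cAMP response element, searched on both strands, where ACGTG and TGACG can overlap. Slc2a1 lies at chr5:138002272-138002521 on the + strand and Hk2 at chr4:116841276-116841525 on the - strand.
Slc2a1: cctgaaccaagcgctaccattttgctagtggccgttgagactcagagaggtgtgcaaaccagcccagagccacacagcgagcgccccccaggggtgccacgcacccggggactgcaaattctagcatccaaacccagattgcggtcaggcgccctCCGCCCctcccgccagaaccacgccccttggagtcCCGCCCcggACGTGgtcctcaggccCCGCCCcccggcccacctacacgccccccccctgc
Hk2: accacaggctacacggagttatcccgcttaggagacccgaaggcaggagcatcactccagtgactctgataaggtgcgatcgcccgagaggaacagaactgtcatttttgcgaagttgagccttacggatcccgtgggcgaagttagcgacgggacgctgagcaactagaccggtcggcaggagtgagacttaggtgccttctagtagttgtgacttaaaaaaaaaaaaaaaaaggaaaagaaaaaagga
The Slc2a1 window, 68.4% G and C, held 3 GC boxes on the opposite strand, starting at bases -95, -60 and -35 from the start site, and 1 ACGTG at -51. The Hk2 window, 49.6% G and C, held none of the 3 motifs. Only these windows were searched, so motifs at other start sites or farther from the start would be missed. Among 33469 promoters of the same length, 30.5% held GGGCGG, 16.6% ACGTG and 18.2% TGACG. The matches are letters in these windows and no measurement of binding.

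Isolated mitochondria were compared with the whole muscle of the same rats, a comparison that asks how much of each transcript the preparation still held. Of the 9 members 8 were lower in MT and Slc2a1 was higher in both arms. By edgeR, 94.8% of 22842 genes were called in Sed (33.1% lower, 61.7% higher) and 94.3% of 21312 in ExT (35.0% lower, 59.3% higher), so a call by itself sets no member apart. The counts of rats and the overlaps of levels given below were taken for the members only. Without the share over all genes they set no member apart either. All genes tested had a median log2 difference of 1.81 in Sed and 1.31 in ExT, and relative to that median all 9 members were lower in MT, by -7.22 to -0.56 in Sed.

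On a scale common to both kinds of library, Slc2a4 ran from 358 to 603 CPM in SM_Sed (median 515) and from 8.13 to 17.6 CPM in MT_Sed (median 10.8). It was lower in 15 of 15 rats with no overlap, by a log2 difference of -5.41 (SE 0.108, edgeR adjusted p = 1.08e-39), or 42.4-fold. In ExT the log2 difference was -5.54 (SE 0.103, edgeR adjusted p = 2.02e-41), with 415 to 688 CPM in SM (median 542) and 7.42 to 18.8 CPM in MT (median 10.95). Slc2a4 stood among the genes most reduced in MT, with 0.889% of genes in Sed at or below its value.

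Irs1, Akt2 and Hk2 came next, at log2 differences in Sed of -4.30 (SE 0.147), -3.79 (SE 0.0817) and -3.13 (SE 0.0907), each lower in 15 of 15 rats without overlap. Hk2 was at 135.7 to 266 CPM in SM_Sed (median 215) and 17.8 to 29.6 CPM in MT_Sed (median 23.4), and its protein is the one that docks on mitochondria. Tbc1d4 was lower by -2.46 (SE 0.0830), Insr by -1.47 (SE 0.0784), Pik3r1 by -1.32 (SE 0.0685) and Tbc1d1 by -0.96 (SE 0.113). In ExT the same 8 genes gave -5.54 to -1.15. For Insr, Tbc1d1 and Pik3r1 the direction depended on the scaling: with library totals as the only scaling their Sed log2 differences were 0.17, 0.69 and 0.33, since the median of all genes then stood at 3.43. Under that scaling Tbc1d1 was called higher in MT (edgeR adjusted p = 0.00363), while Insr (adjusted p = 0.486) and Pik3r1 (adjusted p = 0.174) were not called.

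Slc2a1 was at 2.86 to 7.45 CPM in SM_Sed (median 4.15) and 7.47 to 15.3 CPM in MT_Sed (median 10.6), higher in 15 of 15 rats. Its log2 difference was 1.25 in Sed (SE 0.141, edgeR adjusted p = 1.99e-11) and 0.89 in ExT (SE 0.135, edgeR adjusted p = 3.98e-08), where 14 of 15 rats were higher. Both values lie below the median of all genes.

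Genes of the same families that are nearly silent in whole muscle, chosen after their values were seen, had counts in every MT library. Slc2a2, the liver and islet transporter GLUT2, was at 17.9 ± 3.46 CPM in MT_Sed (SD, n = 15), while it was at 0 in 12 of 15 SM_Sed libraries. Hk3, a hexokinase of blood cells, had a level of 0.0606 ± 0.0744 CPM in the SM_Sed libraries and of 35.6 ± 7.03 CPM in those of MT_Sed, each on its own type's scale (SD, n = 15 each). Odorant and vomeronasal receptor genes, 1260 of them, made up 0.00117% ± 0.00019 of the nuclear-encoded reads of SM_Sed but 1.66% ± 0.164 of those of MT_Sed (SD, n = 15 in both). The part of such counts in the members' MT levels was not tested. Input RNA was 10 ng for MT and 50 ng for SM, so preparation and input cannot be told apart.

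**Figure D4:**
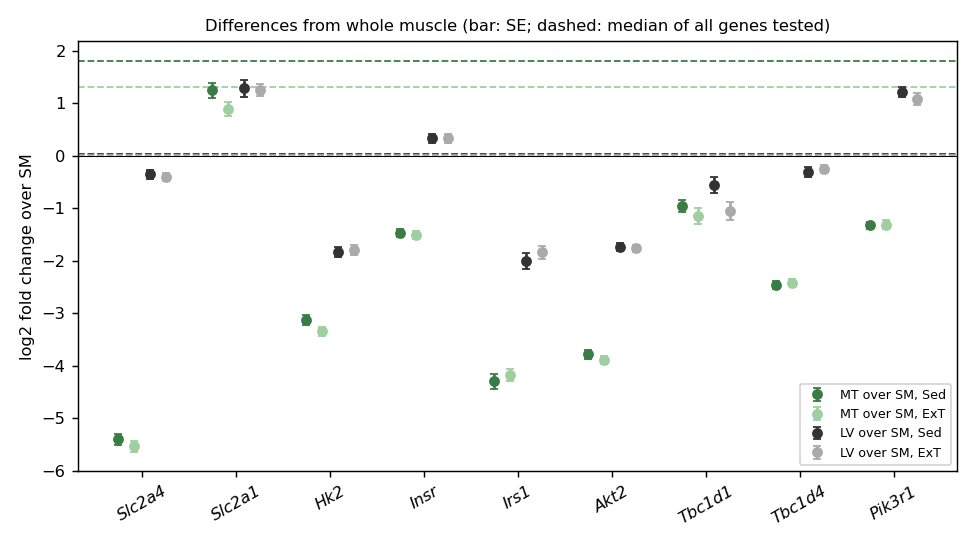
Log2 fold change over whole muscle for each member (edgeR estimate, bar: SE) in MT and LV, for Sed and ExT; dashed lines give the median of all genes tested. In MT, Slc2a4 lies lowest at -5.41 and -5.54 and all 9 lie below the dashed medians of 1.81 and 1.31; in LV, Slc2a1, Pik3r1 and Insr lie above 0 and the other 6 below.

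Heart and hindlimb muscle differed in each of these genes, as in most genes tested. All 9 members were called in both arms: Slc2a1, Pik3r1 and Insr were higher in LV, and Hk2, Irs1, Akt2, Tbc1d1, Slc2a4 and Tbc1d4 were lower. Of all genes, 78.7% of 14367 were called in Sed (40.0% higher, 38.6% lower) and 79.3% of 14338 in ExT (39.7% higher, 39.5% lower), with median log2 differences of 0.04 and 0.01, so here too a call sets no member apart. Nor do the counts of rats and the overlaps between the tissues given below, which were not taken over all genes. LV libraries were made with another kit and from 100 ng of RNA against 50 ng for SM, so tissue and library preparation cannot be told apart.

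The largest reductions were in Irs1, Hk2 and Akt2. Irs1 was at 170.02 to 390.1 CPM in SM_Sed (median 316) and 63.3 to 87.8 CPM in LV_Sed (median 72.8), without overlap, a log2 difference of -2.01 (SE 0.152, edgeR adjusted p = 2.42e-09). Hk2 was at 118 to 162 CPM in SM_Sed (median 147) and 31.6 to 49.0 CPM in LV_Sed (median 40.9), a log2 difference of -1.84 (SE 0.0996, edgeR adjusted p = 2.41e-12) that was -1.80 in ExT. Akt2 was lower by -1.73 (SE 0.0789, edgeR adjusted p = 1.24e-13). All 3 were lower in 7 of 7 rats of each arm, with no overlap between the tissues.

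Slc2a4 was nearer in the 2 tissues, at 289 to 392 CPM in SM_Sed (median 329) and 231 to 314 CPM in LV_Sed (median 262), which overlap. Its log2 difference was -0.35 in Sed (SE 0.0822, edgeR adjusted p = 0.000625, lower in 6 of 7 rats) and -0.40 in ExT (SE 0.0761, edgeR adjusted p = 8.35e-05, lower in 7 of 7). Tbc1d4 was lower by -0.30 in Sed (SE 0.0936, edgeR adjusted p = 0.00634) and -0.24 in ExT (SE 0.0738, edgeR adjusted p = 0.00547), and Tbc1d1 by -0.55 (SE 0.157) and -1.05 (SE 0.177). With library totals as the only scaling, the Sed calls for Slc2a4 (-0.12, edgeR adjusted p = 0.145) and Tbc1d1 (-0.31, adjusted p = 0.0932) and both calls for Tbc1d4 (-0.06 and -0.05, adjusted p = 0.534 and 0.611) were lost.

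Slc2a1 and Pik3r1 were higher in the heart in 7 of 7 rats of each arm. Slc2a1 was at 2.16 to 5.15 CPM in SM_Sed (median 2.96) and 6.64 to 9.34 CPM in LV_Sed (median 8.03), a log2 difference of 1.29 (SE 0.159, edgeR adjusted p = 5.31e-07). Pik3r1 was at 30.7 to 42.4 CPM in SM_Sed (median 36.6) and 72.9 to 102 CPM in LV_Sed (median 82.9), a log2 difference of 1.22 (SE 0.0919, edgeR adjusted p = 2.82e-10). Neither pair of ranges overlapped. Insr was higher by 0.34 in both arms (SE 0.0843 and 0.0851), in 6 of 7 rats of each, with overlap. Hk1, the hexokinase that the heart also expresses, was chosen after its values were seen: it was at 107 ± 6.18 CPM in LV_Sed (SD, n = 7) and 16.8 ± 2.74 CPM in SM_Sed (SD, n = 15), each on the scale of its own tissue.

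Among the wider lists, the median furthest from 0 between heart and hindlimb muscle was that of glucose phosphorylation and glycogen, with 17 of 22 genes lower and 5 higher in LV of Sed rats by edgeR (median log2 difference -1.21). Receptors and adaptors gave 10 lower and 5 higher of 17, GLUT4 traffic 13 lower and 8 higher of 28, and the AMP-activated kinase list 13 lower and 4 higher of 21. The PI3K-Akt branch had more genes higher (13) than lower (7) of 25, and the transporters gave 3 higher and 5 lower of 10. Over all genes tested in LV against SM of Sed rats, 40.0% were higher and 38.6% lower. In MT of Sed rats most of 5 lists was lower than in SM: 16 of 17 receptors and adaptors, 20 of 25, 23 of 28, 18 of 23 and 18 of 21 in the order PI3K-Akt, GLUT4 traffic, glycogen and AMP-activated kinase, where 33.1% of all genes were lower. Transporters were the exception, with 7 of 11 higher and 3 lower and a median of 1.25, below the 1.81 of all genes. After thinning to the smallest total, calls in either direction numbered 5 for receptors and adaptors, 7 for PI3K-Akt, 7 for GLUT4 traffic, 3 for transporters and 8 for AMP-activated kinase, with 3923 of 9178 genes called in all. The directions of the lists in MT are those of the main scaling. With library totals as the only scaling the median of all genes was 3.43, and Insr, Tbc1d1 and Pik3r1, which belong to these lists, turned positive. The split of each list by direction was not taken under that scaling.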

How the data were processed

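Counts per gene were the whole numbers deposited by the authors as 3 tables (SM, MT and LV). Per the submitters' processing notes, FastQC 0.74, cutadapt 4.6, STAR 2.7.11a, HTSeq and the mRatBN7.2 build were used. The strand setting is not given in the sources used here, so overlapping and antisense genes are uncertain. Groups and rat numbers came from the library titles. The members, pathway lists and marker lists were chosen with earlier results of these data known, and the 9 members are named in every comparison.

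Tests were edgeR 4.0.16 quasi-likelihood fits (R 4.3.3; TMM, filterByExpr, robust) on the counts of the groups compared, with Benjamini-Hochberg adjustment over all genes tested and a threshold of 0.05. Each SE is the log2 fold change over the root of F. Alternatives were DESeq2 1.42.0, other scalings and filters, rat-number ranges, thinning to the smallest total, omission of each library and the rat as a replicate block. The fits were tested on simulated data. Levels given for 1 sample type were scaled within it, and those of a contrast between types across both. A count of 3 was taken as the floor, 0.0761 to 0.154 CPM in SM, 0.300 to 5.66 in MT and 0.0396 to 0.0549 in LV, covering counting error only.

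Each library counted as a replicate by the rat number in its title. Libraries of a group differed by more than sampling noise (smallest chi-square per degree of freedom 1.23). Repeat libraries of 1 RNA sample could differ so too, and the check cannot show separate animals. MT, SM and LV libraries with 1 number came from 1 rat, which pairs them by design. Their deviations from the group means correlated weakly (median 0.0159 for MT with SM over 9185 genes, 0.0530 for LV with SM over 8020). For different rats of the same arm the medians were 0.00106 and -0.0078. Only 2 of 30 MT and 3 of 14 LV libraries were closest to the SM library of their own rat. The pairing therefore rests on the rat numbers. Of the lists, Vamp5, Snap23, Cltcl1, Hkdc1 and Slc2a4rg and the markers Myh1, Atp2a1, Hba-a1 and Hbb were not found by symbol and were not analysed here.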

Additional observations from a re-analysis of the deposited data

How the results depend on the processing

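Over the alternatives, no member was called in MT, in LV or in either interaction test, and in SM Slc2a1 alone was. The count of genes called in SM (28) was 131 with DESeq2, 396 in rats 2 to 16, 1 in rats 17 to 32 and 45 with the range as a term. Leaving out 1 library gave 12 to 100: 100, 69 and 46 without sedentary rats 23, 29 and 30, and 12 to 18 without sedentary rats 4, 7, 8, 12, 20 or 24 or trained rats 5, 6, 10, 14, 25 or 27. In LV the count was 1 with DESeq2. The MT minus SM count (5) was 32 with DESeq2, 20 in rats 2 to 16, 1 in rats 17 to 32, 3 with the replicate block, and 0 with library totals or thinning; LV minus SM gave 1 with DESeq2. The replicate block changed no member's call. For MT against SM, thinning to the smallest total, which tests fewer genes, left 3923 calls in Sed and 1988 in ExT. Log2 differences turned positive with library totals and with thinning for Insr (0.17 and 0.27 in Sed, 0.16 and 0.19 in ExT), Tbc1d1 (0.69 and 0.58, 0.47 and 0.46) and Pik3r1 (0.33 and 0.18, 0.31 and 0.20). Of these, only Tbc1d1 with library totals in Sed was called, as higher in MT (edgeR adjusted p = 0.00363). Thinning also ended the calls of Tbc1d4 (-0.67 and -0.35) and of Slc2a1 in ExT (1.49, edgeR adjusted p = 0.0932). With library totals, 86.2% of MT against SM calls in Sed were higher instead of 65.1% (86.5% instead of 62.9% in ExT), and 62.7% instead of 50.9% for LV against SM in Sed. Beyond these constructions, the cause was not tested. Among uncalled members the sign changed in 3 of 342 refits in SM, 5 of 342 in MT and 9 of 180 in LV. MT depth limits every member there to at most 119 counts.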
